A study of Mus musculus with 2 samples.

Results

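The genes described here are 10 interferon-gamma induced GTPases of the mouse: the guanylate-binding protein genes Gbp2, Gbp3, Gbp4, Gbp5, Gbp6 and Gbp7, and the immunity-related GTPase genes Igtp, Irgm1, Irgm2 and Iigp1. They were taken by gene symbol as a gene family, and each matched 1 row of the 32285 genes in the count tables. Earlier results of these data were known when the family was chosen. Spleen immune cells were captured in droplets and sequenced cell by cell (10x Chromium 3′ chemistry), a method in which each captured transcript is counted once through its unique molecular identifier (UMI). The design had 2 libraries from C57BL/6 mice: 1 wild type (WT) and 1 with a conditional knockout of RPA1 (CKO), the large subunit of the single-strand DNA binding complex used in replication and repair. The series is titled as a study of RPA1 in T cells. The Cre line, the deleted exons, and the age, sex and number of mice are not given in the sources used here. With 1 library per genotype no difference can be tested, so every interval below is a 95% interval for counting error only and says nothing of variation between mice.

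Interferon-gamma, made mainly by NK and T cells, binds the receptor chains Ifngr1 and Ifngr2 and signals through the kinases Jak1 and Jak2 to genes that carry a gamma-activated site (GAS). One of the genes it induces is Irf1, whose protein binds the interferon-stimulated response element (ISRE). The GTPases are targets of this signalling and also respond to type I interferon. Gbp proteins assemble on vacuoles that hold bacteria or parasites. Iigp1 is an effector that loads onto such vacuoles, while Igtp, Irgm1 and Irgm2 are the regulatory members that keep effectors off the cell's own membranes.

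The promoters show what the genes share beyond their names. RefSeq windows of 300 bases (250 before to 50 after the start site, build GRCm38.p6) were examined for 7 of the 10 genes, not for Gbp4, Gbp6 and Iigp1. All 7 held the ISRE core GAAANNGAAA on one strand or the other, in at least 1 window, against 3.44% of the 32851 windows in the table. Gbp3 has 2 windows, of which the second held neither this core nor the one described next, so 7 of the 8 windows of these genes held the ISRE core. The GAS core TTCNNNGAA lay in 4 of them, those of Gbp5, Gbp7, Igtp and Irgm2, against 8.3% of all windows. The windows of Gbp3 and Irgm1 each held 2 ISRE matches, which overlap. Windows with 2 or more matches, overlapping or not, were 0.225% of all. A match is a description of letters, not of binding. The stretches around the ISRE matches are given because they are the sequence that the 7 genes have in common, 5′ to 3′ on the gene's own strand, with the matches in capitals. Their positions are chr3:142620579-142620638 (plus strand) for Gbp2, chr3:142559974-142560039 (plus) for Gbp3, chr3:142496744-142496803 (plus) for Gbp5, chr3:142530258-142530317 (plus) for Gbp7, chr11:58199497-58199556 (plus) for Igtp, chr11:48871410-48871475 (minus) for Irgm1 and chr11:58214888-58214947 (plus) for Irgm2.
Gbp2: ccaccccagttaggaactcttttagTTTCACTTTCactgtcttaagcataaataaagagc
Gbp3: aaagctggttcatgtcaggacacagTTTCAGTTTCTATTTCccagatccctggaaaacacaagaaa
Gbp5: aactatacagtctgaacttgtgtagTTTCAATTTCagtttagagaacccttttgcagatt
Gbp7: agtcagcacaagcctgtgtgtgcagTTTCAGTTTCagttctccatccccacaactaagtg
Igtp: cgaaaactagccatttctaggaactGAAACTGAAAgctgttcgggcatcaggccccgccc
Irgm1: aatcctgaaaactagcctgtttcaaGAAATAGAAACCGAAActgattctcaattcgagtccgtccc
Irgm2: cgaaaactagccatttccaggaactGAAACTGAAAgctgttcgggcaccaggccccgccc

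The 4 Gbp genes shown carry the match on the opposite strand, and the 3 immunity-related GTPase genes carry it on their own strand. The first base of the matches nearest the start site lay 59 bases before it in Gbp2, 39 in Gbp3, 53 in Gbp7, 34 in Igtp, 24 in Irgm1 and 64 in Irgm2. Gbp5 was the exception, at 165 bases. The windows of Igtp and Irgm2 were 90.4% identical over 270 bases, and in both a GAS match came just before the ISRE match, starting 45 bases before the start site in Igtp and 75 in Irgm2. The RefSeq start sites of Gbp2, Gbp3, Gbp5, Irgm1 and Irgm2 used here lie inside the wider spans of these genes in the annotation used next.

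**Figure D1:**
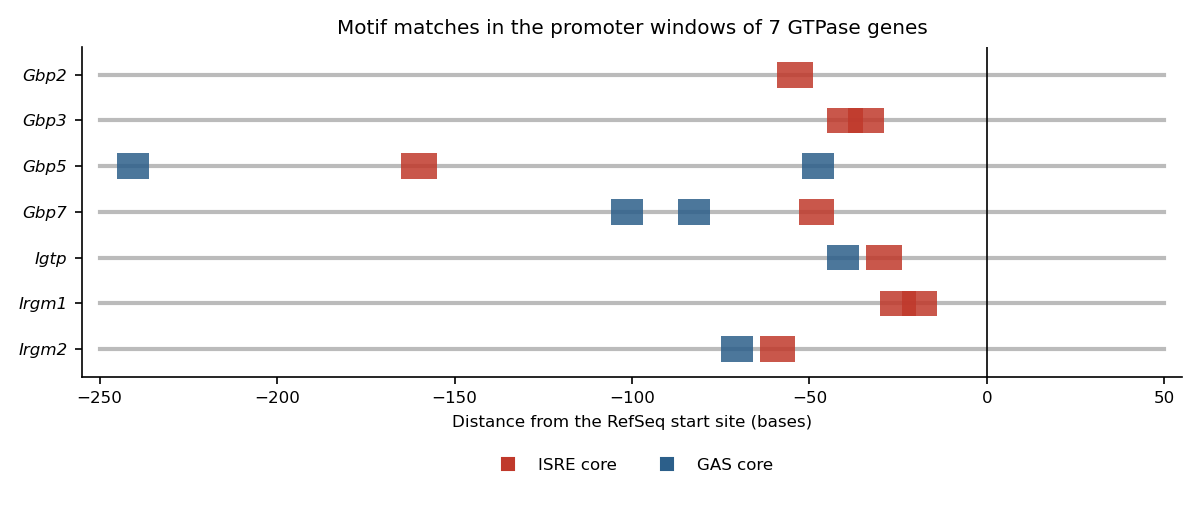
Positions of ISRE core (red) and GAS core (blue) matches in the promoter windows of 7 GTPase genes, in bases from the RefSeq start site. All 7 windows hold an ISRE match, and 6 of the 7 genes have it within 64 bases of the start site.

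In the GENCODE annotation of GRCm38, Gbp5, Gbp7, Gbp3 and Gbp2 lie side by side on the plus strand of chromosome 3, between 142493978 and 142638008. Gbp4 (105115767 to 105139586) and Gbp6 (105270702 to 105293698) lie on the minus strand of chromosome 5. On chromosome 11, Igtp (58199556 to 58207591) lies inside the span of Irgm2 (58199618 to 58222782) for most of its length, on the same strand, and Irgm1 spans 48861968 to 48871683. Some counts are therefore uncertain. Gbp4 overlaps Gbp8 and Gbp9 on its own strand, and its last 500 bases match Gbp6 at 88.5% identity. The last 500 bases of Gbp6 are 99.6% identical to Gm43302, a gene that overlaps it and has no row in the files, and Gbp7 overlaps Gm43802, also without a row. How reads shared between overlapping genes were counted is not given in the sources used here. The values of Gbp4, Gbp6, Gbp7, Igtp and Irgm2 carry that uncertainty. Within its last 500 bases Irgm1 matches Ncbp3 at 90.9% identity over 198 bases. Weaker matches were those of Gbp7 to Lypla1 (74.5% over 329 bases) and Iigp1 to Asf1b (73% over 204). The part of these matches in the counts was not tested.

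The tables held 13291 WT and 12958 CKO cell barcodes, with 84240951 and 76910129 UMIs. After filters 12679 and 12610 cells were kept, with medians of 5520 and 4690 UMIs, and 33 kept barcodes occurred in both libraries. Cells were put into classes by UMIs of marker genes, and a class is called "like" its cell type for that reason. T-lineage cells were 28.1% of kept WT cells and 5.71% of kept CKO cells. Rpa1 itself was at 45.9 UMIs per 1000000 UMIs of the class (CPM) in WT and 34.7 in CKO CD4 T-like cells, a ratio of 0.755 (0.568 to 0.989), and at 35.6 and 34 CPM in follicular B-like cells. In CD8 T-like cells it was at 39.6 CPM in WT and 42.4 in CKO, a ratio of 1.07 (0.717 to 1.54). Because the deleted part is not stated, a 3′ tag may lie outside it and these values do not check the label.

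Over all kept cells the 10 genes together made up 294 CPM (291 to 298) of the WT library and 208 CPM (205 to 211) of the CKO library, a CKO/WT ratio of 0.707 (0.693 to 0.721). The genes differed widely in this. Iigp1 went from 9.82 CPM in WT to 2.64 in CKO (ratio 0.269, 0.229 to 0.314) and Gbp6 from 16.4 to 5.17 (0.315, 0.281 to 0.353). Gbp3, at 20.5 and 21.9 CPM, had a ratio of 1.07 (0.998 to 1.14), and Gbp5, at 21.9 and 21.3, one of 0.972 (0.908 to 1.04). Between these lay Igtp (0.54), Gbp2 (0.585), Gbp7 (0.695), Gbp4 (0.722), Irgm2 (0.739) and Irgm1 (0.878).

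The order of these ratios followed where each gene's UMIs lay. In WT, T-like cells held 31.1% of all UMIs but 47.8% of the GTPase UMIs, 79.7% of those of Iigp1 and 72.6% of those of Gbp6. For Gbp3 the T-like share was 16.1% and the B-like share 67.2%, and for Gbp5 they were 22.5% and 62.1%. To set apart the mix of classes, each WT class level was weighted by that class's share of CKO UMIs. The 21 groups weighted included the cells with markers of more than 1 lineage and those that met no gate. The weighted sum came to 239 CPM, so a ratio of 0.811 went with the change of makeup and a ratio of 0.871 remained. That remainder also holds any change of mix inside a group, such as the T content of the mixed cells, which was not tested. For Iigp1 the makeup part was 0.398 and the remainder 0.674, and for Gbp6 they were 0.478 and 0.659. Gbp3 would have been higher by makeup alone (1.21) and had a remainder below 1 (0.88), and Gbp5 likewise (1.12 and 0.864). The remainder was below 1 for all 10 genes, nearest to 1 for Gbp4 (0.963).

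**Figure D2:**
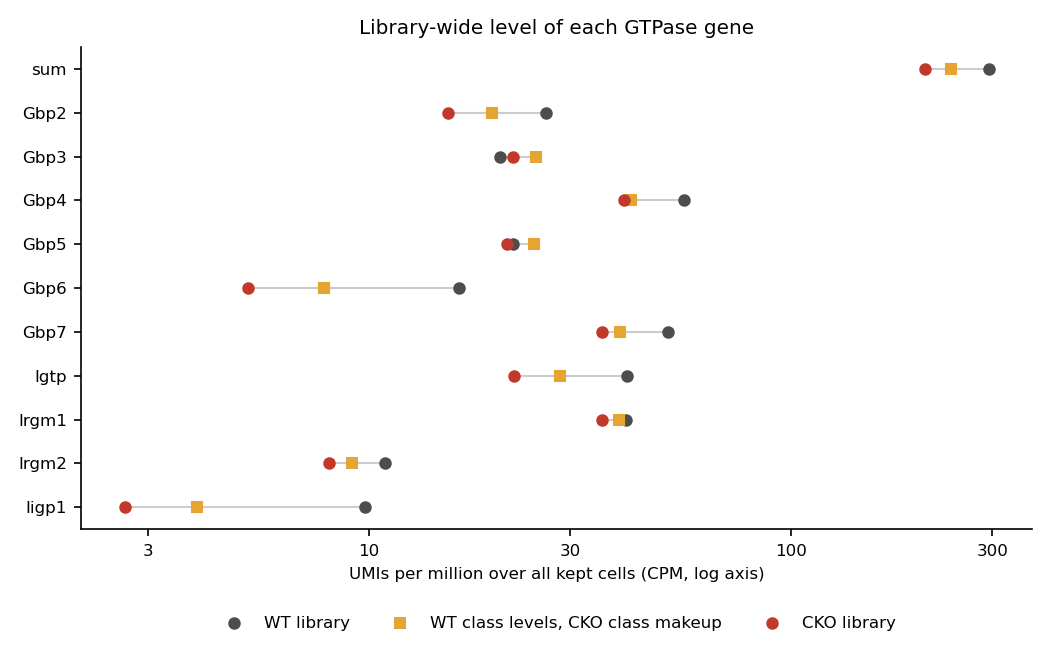
Level of each GTPase gene over all kept cells (CPM, log axis) in the WT library (grey), in the CKO library (red), and as WT class levels weighted by the CKO class makeup (yellow squares). Iigp1 and Gbp6 move farthest with makeup, and for Gbp3 and Gbp5 the square lies to the right of both libraries.

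T-like cells led the order of levels over the WT classes. The summed level was 661 CPM (614 to 711) in 153 Treg-like cells, 443 (430 to 457) in CD4 T-like, 434 (421 to 447) in CD8 T-like and 398 (369 to 429) in NK-like cells. CD4 and CD8 T-like cells did not differ beyond their counting intervals, nor did CD8 T-like and NK-like cells. Marginal zone B-like cells, at 276 CPM (259 to 294), stood above follicular B-like cells at 190 (185 to 195) and transitional B-like cells at 186 (171 to 204). Monocyte-like cells, at 240 CPM (213 to 268), overlapped marginal zone B-like cells, and conventional dendritic cell-like (cDC-like) cells, at 177 (156 to 199), overlapped follicular B-like cells. A UMI counts 1 transcript end, so the levels of different genes are set side by side below without a length term.

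The family did not have 1 pattern over cell types. In WT CD4 T-like cells the Gbp genes ran from Gbp4 at 93.8 CPM (87.5 to 100) and Gbp7 at 80.9 (75.1 to 87.1) through Gbp2 at 40.1 and Gbp6 at 37.2 to Gbp5 at 12.4 and Gbp3 at 6.8 (5.19 to 8.76). In WT follicular B-like cells Gbp4 was again the highest Gbp gene, at 34.1 CPM (31.9 to 36.3), followed by Gbp5 at 27.5 (25.6 to 29.6) and Gbp3 at 26 (24.1 to 28). Gbp3 and Gbp5 thus stood higher in follicular B-like than in CD4 T-like cells, and Gbp6, at 3.2 CPM (2.56 to 3.95) there, stood lower. Among the 8 classes plotted by level, Gbp7 was highest in NK-like cells, at 137 CPM (121 to 156) in WT and 142 (131 to 154) in CKO, and Treg-like WT cells had the same 137 CPM (116 to 161). Gbp4 had no UMI in WT monocyte-like cells and 4 in CKO monocyte-like cells, and it had none in neutrophil-like cells of either library. After every cell was thinned to 1000 UMIs, a Gbp4 UMI remained in 8.09% of WT CD4 T-like cells (median depth before thinning 6492 UMIs) and in 0 of 133 WT monocyte-like cells (median 8598), which allows a share of cells with a UMI at that depth of up to 2.26% (3 of 133).

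Among the immunity-related GTPases the effector Iigp1 and the regulator Igtp stood highest in T-like cells, and the regulator Irgm1 did not. The effector Iigp1, on chromosome 18 (60376027 to 60392634, plus strand), was at 33.9 CPM (30.2 to 38) in WT CD4 T-like cells, 12.6 (10.5 to 15) in CD8 T-like cells and 66.6 (52.1 to 83.8) in Treg-like cells. In follicular B-like cells 5 UMIs from 5083 WT cells and 6 from 6358 CKO cells gave 0.184 and 0.176 CPM. The regulator Irgm1 was present in all these classes, at 35.2 CPM in WT follicular B-like, 47.8 in CD4 T-like and 32.1 in NK-like cells, and was highest among the 8 plotted WT classes in monocyte-like cells, at 69.1 (55.3 to 85.4). That interval overlapped the one of cDC-like cells, at 54.6 (43.5 to 67.7). Within monocyte-like cells Irgm1 was at 85 (66 to 108) in classical monocyte-like cells. Igtp resembled the T-like genes, at 75.6 CPM in CD4 T-like, 67.4 in CD8 T-like and 21.1 in follicular B-like cells. In WT, Irgm2 was the lowest regulator in each of the 8 classes, between 5.57 CPM in transitional B-like and 18.5 in monocyte-like cells. Its interval overlapped that of Igtp in cDC-like cells (16.4 against 17.1 CPM) and in monocyte-like cells (18.5 against 24.9).

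**Figure D3:**
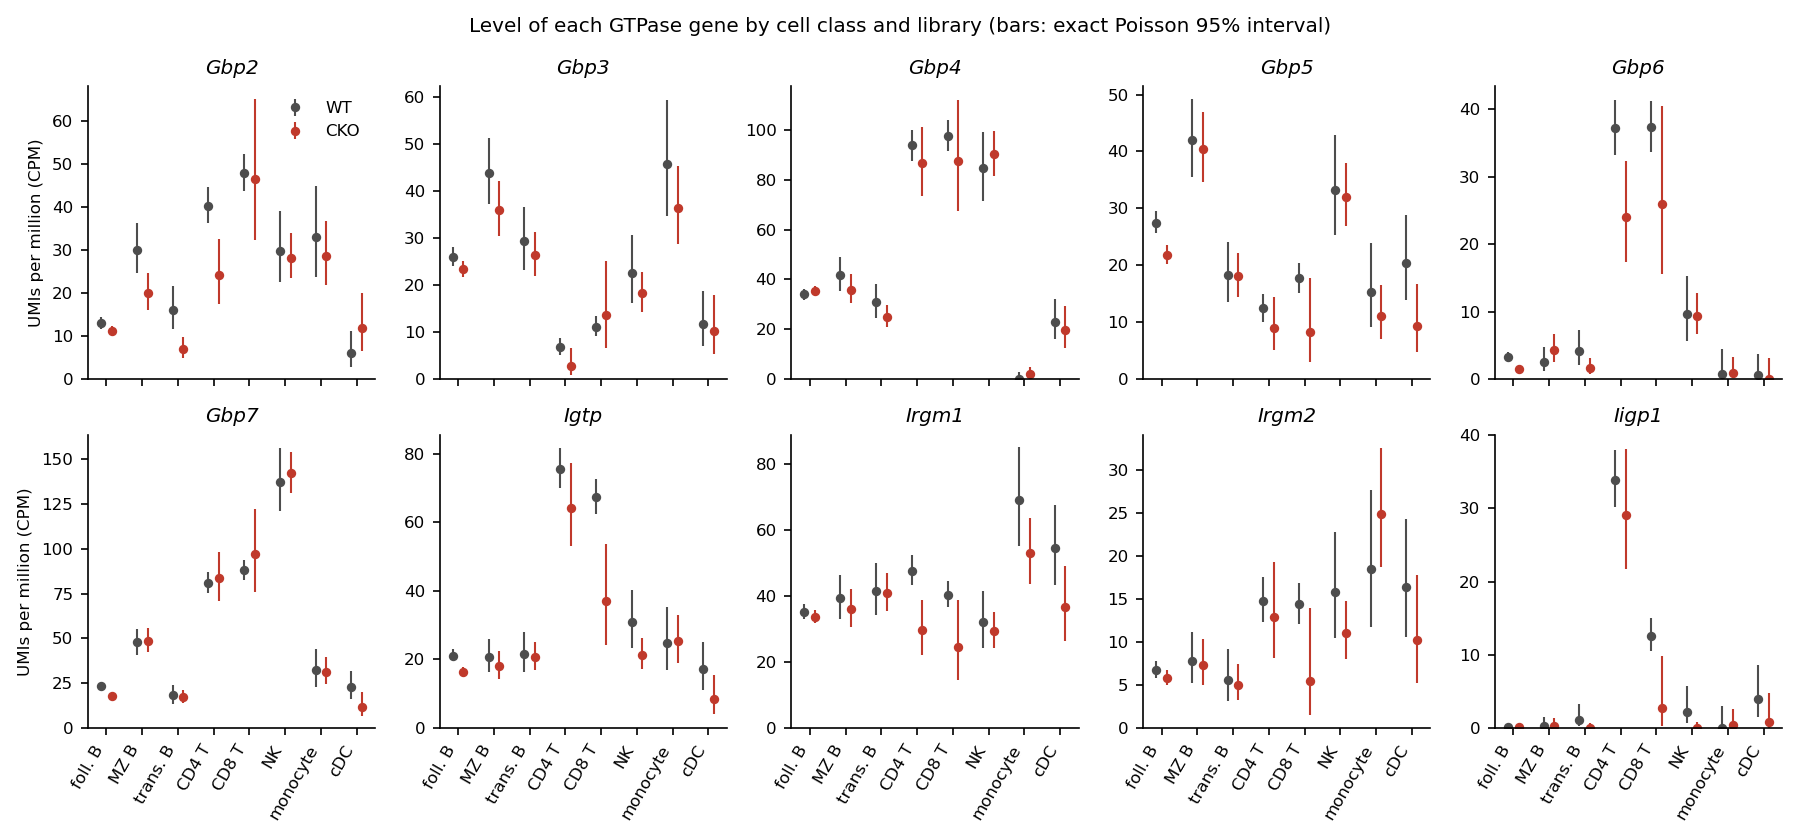
CPM of each GTPase gene in 8 cell classes (x axis: follicular, marginal zone (MZ) and transitional B, CD4 T, CD8 T, NK, monocyte and cDC, all marker-gated) in WT (grey) and CKO (red), with exact Poisson 95% intervals. Gbp6 and Iigp1 stand high in T-like cells, Gbp7 in NK-like cells and Irgm1 in monocyte-like cells, and in most panels the red point lies at or below the grey point.

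The genes whose levels were most like the mean of the 10 were H2-T22, a class Ib histocompatibility gene, with a Pearson r of 0.93, then Ikzf2 (0.91), Cd28, Nt5e and Uqcrh (each 0.90). The likeness was taken on log2(CPM + 10) over 21 class and library pairs of at least 100 cells among 8306 genes. The pairs share libraries and their top values come from the same Treg-like WT cells, where Ikzf2, a gene of the Treg marker list, reached 1093 CPM. Of the members, Gbp6 (0.93), Igtp (0.92), Gbp7 (0.89), Iigp1 (0.84) and Gbp2 (0.83) had the highest r with that mean and Irgm1 (-0.08) and Gbp3 (-0.19) the lowest. The mean contains each of these genes, so part of their likeness to it is built in.

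Within follicular B-like cells, the largest class, the GTPases were lower in the CKO library by a small margin: 190 CPM (185 to 195) from 5172 UMIs in WT and 167 (163 to 172) from 5715 UMIs in CKO, a ratio of 0.88 (0.847 to 0.913). The genes moved unevenly. Gbp7 was at 23.2 CPM in WT and 17.9 in CKO (0.768, 0.686 to 0.86), Igtp at 21.1 and 16.4 (0.778, 0.691 to 0.876) and Gbp5 at 27.5 and 21.8 (0.793, 0.715 to 0.879). Gbp4, at 34.1 and 35.3 CPM (1.04, 0.951 to 1.13), and Irgm1, at 35.2 and 33.8 (0.959, 0.879 to 1.05), did not differ beyond counting error. Gbp6 was at 3.2 and 1.55 CPM (0.485, 0.338 to 0.69) and was the 1 gene at least 1.5-fold lower among the 9 with enough UMIs to be measured, that is, with at least 10 expected in the smaller class. No member was 1.5-fold higher. Of all 12276 genes measured in this class, 3.05% were at least 1.5-fold lower and 3.3% at least 1.5-fold higher. Below 1 were 8 of the 9 ratios, with a median log2 ratio of -0.21 against 0.04 over all measured genes.

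Counts of T markers in these B-like cells moved the same way as Gbp6: the 7 T markers, all detected in both libraries, summed to 46 CPM in WT and 12 in CKO follicular B-like cells, against 6519 CPM in WT CD4 T-like cells. The 8 NK markers summed to 11.3 and 16.9 CPM and the 7 monocyte or macrophage markers to 561 and 504. With a stricter gate, which asks for 1 more B marker and leaves out cells with a UMI of Cd3e, Ncr1, Csf1r or Flt3, the Gbp6 ratio was 0.478. Iigp1, the gene most restricted to T-like cells, was at 0.184 and 0.176 CPM in follicular B-like cells. These values come from 5 and 6 UMIs, with a ratio interval of 0.243 to 3.96. The part of the T, NK and monocyte markers in the follicular B-like values was not tested.

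The other B-like classes gave similar sums. In marginal zone B-like cells the 10 genes were at 276 CPM (259 to 294) in WT and 247 (232 to 262) in CKO, a ratio of 0.893 (0.818 to 0.975), and in transitional B-like cells at 186 and 162 (0.869, 0.776 to 0.973). Gbp2 was the gene that stood out in both. It was at 30 and 20 CPM in marginal zone B-like cells (0.665, 0.495 to 0.892) and at 16 and 7.04 CPM in transitional B-like cells (0.44, 0.274 to 0.705). In marginal zone B-like cells 1 of 9 measured members, Gbp2, was at least 1.5-fold lower, against 3.38% of all measured genes. In the other direction 1, Gbp6, was higher, against 5.41%, from 9 UMIs in WT and 18 in CKO (1.69, 0.721 to 4.27). In transitional B-like cells 1 of 8 was lower and 0 higher, against 3.18% and 6.34% of measured genes. The Gbp2 call in marginal zone B-like cells lay at the threshold: leaving out the 1 cell with the most GTPase UMIs in each library ended it. The T markers were lower in CKO here as well, at 32.2 and 15.7 CPM in marginal zone and 45.7 and 16.7 in transitional B-like cells. The 7 monocyte or macrophage markers were at 461 and 452 CPM in marginal zone B-like cells and at 648 and 432 in transitional B-like cells (0.666, 0.625 to 0.71). The part of these markers in these values was not tested.

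In CD4 T-like cells, 1286 in WT and 297 in CKO, the summed level was 443 CPM (430 to 457) in WT and 366 (339 to 396) in CKO, a ratio of 0.826 (0.76 to 0.898). Gbp2 was at 40.1 CPM in WT and 24.1 in CKO (0.599, 0.426 to 0.824). Irgm1 was at 47.8 and 29.6 (0.62, 0.457 to 0.826), and Gbp6 at 37.2 and 24.1 (0.647, 0.459 to 0.891). These 3 of 9 measured members were at least 1.5-fold lower and 0 were higher, while 4.78% of the 8451 genes measured in the class were lower and 4.2% higher. Ratios below 1 were found for 8 of the 9, with a median log2 ratio of -0.23 against 0.03 over all measured genes. The most abundant members kept close to WT: Gbp7 was at 80.9 and 83.9 CPM (1.04, 0.863 to 1.24) and Gbp4 at 93.8 and 86.7 (0.925, 0.774 to 1.1). The effector Iigp1 was at 33.9 and 29.1 CPM (0.858, 0.626 to 1.15), so its low level in the CKO library as a whole was not seen at that size within CD4 T-like cells.

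Memory CD4 T-like cells numbered 161 in WT and 8 in CKO, so the naive cells were also compared on their own. In 1034 WT and 257 CKO naive CD4 T-like cells the sum was 428 and 376 CPM (0.878, 0.801 to 0.96). Gbp2 (0.61, 0.422 to 0.858) and Irgm1 (0.658, 0.474 to 0.896) were the 2 of 9 members at least 1.5-fold lower, against 3.63% of measured genes, and 0 were higher, against 4.84%. Gbp6 there was at 33 and 25.9 CPM (0.785, 0.546 to 1.1) and Iigp1 at 29.2 and 33 (1.13, 0.815 to 1.55). In WT, memory CD4 T-like cells had higher levels than naive ones, with Iigp1 at 58.9 CPM (46.8 to 73.2) against 29.2 (25.3 to 33.5) and Gbp6 at 56 (44.2 to 70) against 33 (28.8 to 37.6). Treg-like cells went from 661 CPM in 153 WT cells to 356 (274 to 456) in 36 CKO cells, a ratio of 0.539 (0.41 to 0.698). Gbp3, with 61 UMIs (56.4 CPM) in those WT cells, had 0 in the CKO cells.

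CD8 T-like cells were 1265 in WT and 103 in CKO. The sum was 434 CPM (421 to 447) and 348 (307 to 394), a ratio of 0.803 (0.705 to 0.911). Over the class as a whole the families parted. The 6 Gbp genes were at 299 and 279 CPM (0.931, 0.804 to 1.07) and the 4 immunity-related GTPases at 135 and 69.7 (0.517, 0.383 to 0.684). Igtp was at 67.4 and 36.9 CPM (0.548, 0.358 to 0.804) and Irgm1 at 40.4 and 24.6 (0.609, 0.357 to 0.974). Iigp1, at 12.6 and 2.73 CPM from 130 and 2 UMIs (0.217, 0.0259 to 0.798), had too few to be measured. Both of its CKO UMIs lay in 1 cell. Of 6 measured members 2, Igtp and Irgm1, were at least 1.5-fold lower, against 3.85% of measured genes, and 0 were higher, against 8.29%. The median log2 ratio of the 6 was -0.34 against 0.10 over all measured genes. The CD8 T-like cells of the libraries differed in other markers: Trdc, a gamma-delta T cell receptor gene, had a UMI in 2.85% of WT and 27.2% of CKO cells, the 8 NK markers summed to 370 and 685 CPM, and the 7 monocyte or macrophage markers, 7 of them with a UMI in WT and 3 in CKO, to 191 and 109. Without the cells with a Trdc UMI the summed ratio was 0.778. In naive CD8 T-like cells, 500 and 41, the sum was 472 and 264 CPM (0.558, 0.433 to 0.709). Both families were lower there. The Gbp genes had a ratio of 0.646 (0.485 to 0.845) and the immunity-related GTPases one of 0.362 (0.196 to 0.612). Memory CD8 T-like cells were 434 and 41, of which 53.7% in CKO had a Trdc UMI. Their sum was 403 and 389 CPM (0.966, 0.803 to 1.15). The Gbp genes were at 1.13 (0.917 to 1.38) of the WT level and the immunity-related GTPases at 0.609 (0.394 to 0.902).

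NK-like cells, 369 in WT and 892 in CKO, had nearly the same sum in both libraries, 398 CPM (369 to 429) and 382 (363 to 401), a ratio of 0.959 (0.877 to 1.05). The Gbp genes together were at 317 and 320 CPM (1.01, 0.915 to 1.12), and the immunity-related GTPases at 81.1 and 61.7 (0.761, 0.618 to 0.94). Igtp, at 31 and 21.3 CPM (0.687, 0.486 to 0.98), was the lowest ratio among the 9 measured members. None of them was 1.5-fold lower or higher, while 4.04% and 4.4% of measured genes were. In NK-like cells the 7 T markers summed to 708 CPM in WT and 583 in CKO and the 7 monocyte or macrophage markers to 235 and 154, and their part in these values was not tested.

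Myeloid classes held few cells. In monocyte-like cells, 134 and 226, the sum was 240 CPM (213 to 268) and 214 (195 to 234), a ratio of 0.893 (0.771 to 1.04), and 0 of 7 measured members were 1.5-fold lower or higher, against 6.08% and 4.77% of measured genes. Classical monocyte-like cells were at 275 and 267 CPM and non-classical ones at 188 and 124 (0.661, 0.465 to 0.941). In cDC-like cells, 121 and 100, the sum was 177 CPM (156 to 199) and 119 (100 to 140), a ratio of 0.673 (0.544 to 0.828). There 4 of 8 measured members were at least 1.5-fold lower, Gbp5 (0.459), Igtp (0.497), Gbp7 (0.517) and Irgm2 (0.62), against 6.18% of measured genes, and 1, Gbp2, was higher (2.01, 0.811 to 5.27), against 8.69%. The 7 T markers summed to 28.3 CPM in WT and 14.5 in CKO cDC-like cells, with 4 of them detected in CKO, and the 7 monocyte or macrophage markers to 3149 and 2329. Their part was not tested. A single WT cell held 41 of the 269 GTPase UMIs. Without the cell with the most GTPase UMIs in each library the cDC-like ratio was 0.748, and without the cells with UMIs of at least 2 type I interferon markers it was 1.19 (0.827 to 1.72).

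**Figure D4:**
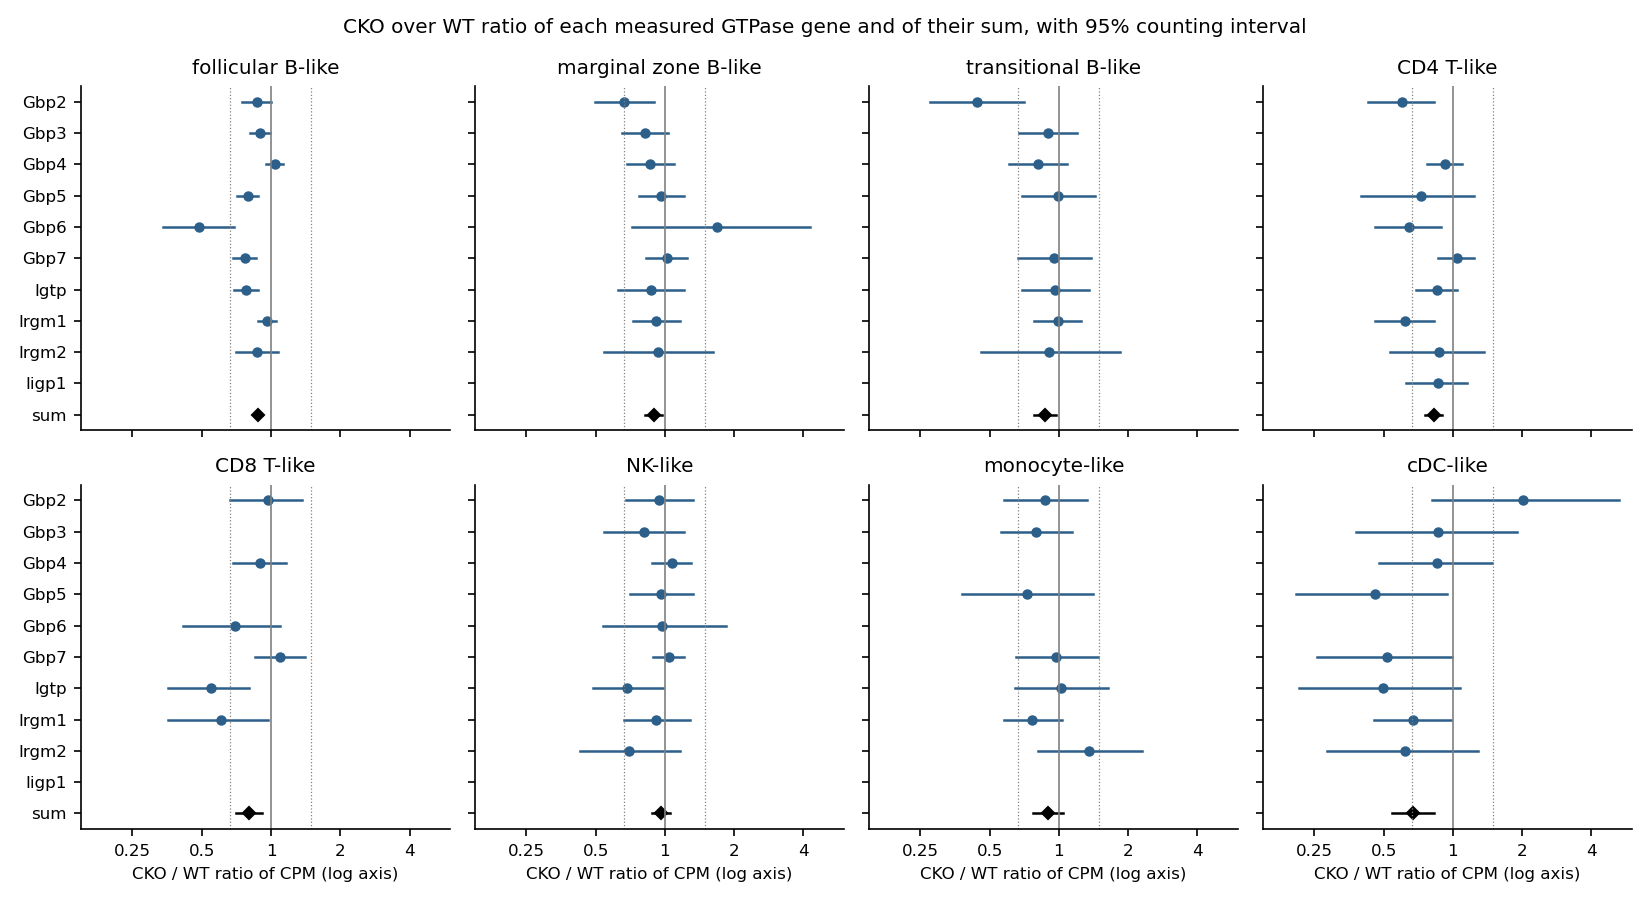
CKO/WT ratio of CPM (log axis) for each measured GTPase gene (blue) and for the sum of the 10 (black diamonds) in 8 marker-gated classes, with 95% counting intervals; dotted lines mark 1.5-fold. The sums lie below 1 in all 8 classes, from 0.673 in cDC-like to 0.959 in NK-like cells, and the intervals of NK-like and monocyte-like cells include 1.

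In the large classes the GTPase UMIs were spread over many cells. After thinning to 1000 UMIs, any member was detected in 31.1% (28.6 to 33.7) of WT and 32% (26.7 to 37.6) of CKO CD4 T-like cells, in 32.1% and 29.9% of NK-like cells, and in 15.2% (14.2 to 16.2) and 13.8% (13 to 14.7) of follicular B-like cells. Unthinned, the shares were 81.6% and 78.5% in CD4 T-like, 76.4% and 72.2% in NK-like and 50.8% and 47.9% in follicular B-like cells. In thinned CD4 T-like cells, 2 different members were found together in 5.68% of WT and 6.06% of CKO cells, and 3 or more in 2.02% and 1.35%. The 1% of cells with the most GTPase UMIs held 9.49% of them in WT and 11.1% in CKO CD4 T-like cells, and 10.1% in both libraries in follicular B-like cells.

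In follicular B-like, CD4 T-like and NK-like cells, those with UMIs of type I interferon markers had higher GTPase levels. Cells with UMIs of at least 2 of 10 such genes (Isg15, Ifit1, Ifit3, Ifit2, Rsad2, Oasl2, Usp18, Ifi44, Cmpk2, Rtp4) were 6.98% of WT and 8.32% of CKO follicular B-like cells, and 1.14% (0.869 to 1.47) and 1.21% (0.958 to 1.51) after thinning to 1000 UMIs. The split thus depends on depth, and a UMI is not proof that a cell expresses a marker. The GTPase sum in them was 375 CPM in WT and 321 in CKO, against 173 and 148 in the remaining cells. In each library that was a ratio of 2.17 (2.01 to 2.33 in WT and 2.03 to 2.31 in CKO). Marker-bearing cells were also deeper, with medians of 5449 and 5536 UMIs against 4574 and 4337. CD4 T-like cells with the markers were at 739 CPM in WT and 638 in CKO, against 355 and 284 without them. NK-like cells were at 921 and 798 against 357 and 350. The members differed in this too: in WT follicular B-like cells Irgm1 was 2.85 times higher in marker-bearing cells (2.42 to 3.33) and Igtp 3.06 times (2.5 to 3.74), but Gbp3 and Gbp5 each 1.53 times.

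In the cells without UMIs of at least 2 markers the summed CKO/WT ratio was 0.856 (0.821 to 0.893) for the follicular, 0.888 (0.799 to 0.987) for the marginal zone and 0.838 (0.733 to 0.959) for the transitional B-like class, and 0.799 (0.716 to 0.89) in CD4 T-like cells. The interval included 1 in naive CD4 T-like cells (0.906, 0.806 to 1.02) and CD8 T-like cells (0.895, 0.768 to 1.04), where it had not over all cells of the class, and in NK-like cells (0.981, 0.89 to 1.08). In cDC-like cells the ratio was 1.19 (0.827 to 1.72), as given above. In monocyte-like cells it was 1.34 (0.972 to 1.88), from 55 WT and 129 CKO UMIs, on the other side of 1 from the value over all monocyte-like cells.

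The signalling genes of the pathway, taken from a list of 47 genes of which 45 had a row, also differed by class. In follicular B-like cells 5 of 37 measured list genes were at least 1.5-fold lower in CKO and 1 was higher, against 3.05% and 3.3% of all measured genes. The receptor chains Ifngr1 (68.8 CPM in WT, 70.7 in CKO) and Ifngr2 (75.3 and 74.6) and the kinases Jak1 (ratio 0.99, 0.963 to 1.02) and Jak2 (0.994, 0.916 to 1.08) did not differ. Irf1 was at 80.9 and 53 (0.655, 0.615 to 0.697). Nlrc5, the transactivator of class I antigen presentation genes, was at 12.5 and 6.32 CPM (0.506, 0.424 to 0.602), and the feedback inhibitor Socs3 at 3.71 and 1.76 (0.473, 0.338 to 0.657). Of 6 measured targets other than GTPases 0 were 1.5-fold lower or higher. Among them Psmb9, Tap1 and B2m, which serve peptide processing and presentation, had ratios of 0.796, 0.799 and 0.834. Among the 11 further interferon GTPases with a row, 8 were measured and 2 were at least 1.5-fold lower: Tgtp1, with 20 and 3 UMIs, and Tgtp2, at 6.73 and 4.13 CPM (0.613, 0.489 to 0.768). Of 9 measured type I markers 1 was at least 1.5-fold higher and 0 lower, with Isg15 at 24.8 and 27.5 CPM (1.11) and Rsad2 at 3.53 and 5.83 (1.65, 1.29 to 2.13). The 1 higher list gene was Ifng itself, at 0.736 and 1.14 CPM from 20 and 39 UMIs (1.55, 0.884 to 2.81).

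In CD4 T-like cells 6 of 34 measured list genes were at least 1.5-fold lower and 2 higher, against 4.78% and 4.2% of all measured genes. The ligand Ifng was at 9.3 CPM in WT and 2.24 in CKO, from 82 and 4 UMIs (0.241, 0.064 to 0.64). Irf1 was at 113 and 83.3 CPM (0.74, 0.619 to 0.88). Irf8 was at 17.8 and 3.92 CPM (0.22, 0.087 to 0.464), and Tgtp2 at 28 and 10.6 (0.379, 0.225 to 0.605). The 2 higher genes were the feedback inhibitors Socs1, at 36.2 and 54.8 CPM (1.52, 1.2 to 1.91), and Socs3, at 27.9 and 45.3 (1.62, 1.25 to 2.1). Of 9 measured type I markers 5 were at least 1.5-fold higher in CKO, against 4.2% of all measured genes, led by Rsad2 at 4.88 and 15.1 CPM (3.1, 1.84 to 5.13) and Ifit3 at 23.8 and 41.9 (1.76, 1.34 to 2.3). The 6 B markers summed to 48 CPM in WT and 59.8 in CKO CD4 T-like cells, and the 8 NK markers to 51.6 and 43.6, and their part in these values was not tested. Nor was that of the memory CD4 T-like cells, 161 in WT and 8 in CKO. In naive CD4 T-like cells 2 of 30 measured list genes were lower and 1 higher, against 3.63% and 4.84% of measured genes. Ifng had too few UMIs to be measured there. Of 9 measured type I markers 4 were higher and 1 lower in the naive cells.

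NK-like cells, the class with the highest Ifng level in this comparison (121 CPM in WT and 130 in CKO, 1.08, 0.917 to 1.27), had Irf1 at 160 CPM in both libraries (0.999, 0.868 to 1.15). Of 34 measured list genes 1 was at least 1.5-fold lower and 0 higher, against 4.04% and 4.4% of all measured genes. The lower gene was the chemokine Cxcl10, at 29.3 and 4.54 CPM (0.155, 0.0866 to 0.267). In CD8 T-like cells Irf1, at 123 and 119 CPM (0.967, 0.769 to 1.2), and B2m, at 1861 and 1838 (0.988), did not differ. Their Ifng was at 5.15 CPM in WT and 19.1 in CKO, from 53 and 14 UMIs (3.72, 1.9 to 6.8), below the number of UMIs asked for a measured gene. In marginal zone B-like cells Nlrc5 was at 19.2 and 9.63 CPM (0.502, 0.333 to 0.75), while 6 of 9 measured type I markers were at least 1.5-fold higher, against 5.41% of all measured genes. In cDC-like cells 7 of 9 measured type I markers were at least 1.5-fold lower, against 6.18% of all measured genes, among them Ifit3 at 125 and 29.8 CPM (0.238, 0.161 to 0.343), together with the chemokines Cxcl9 (57.2 and 18.7 CPM, 0.327) and Cxcl10 (43.4 and 11.1, 0.255). Genes of the conjugation machinery that loads GTPases onto membranes, such as Atg3, Atg5 and Atg7, were not beyond 1.5-fold in follicular B-like, CD4 T-like or NK-like cells (0 of 7 measured in each).

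**Figure D5:**
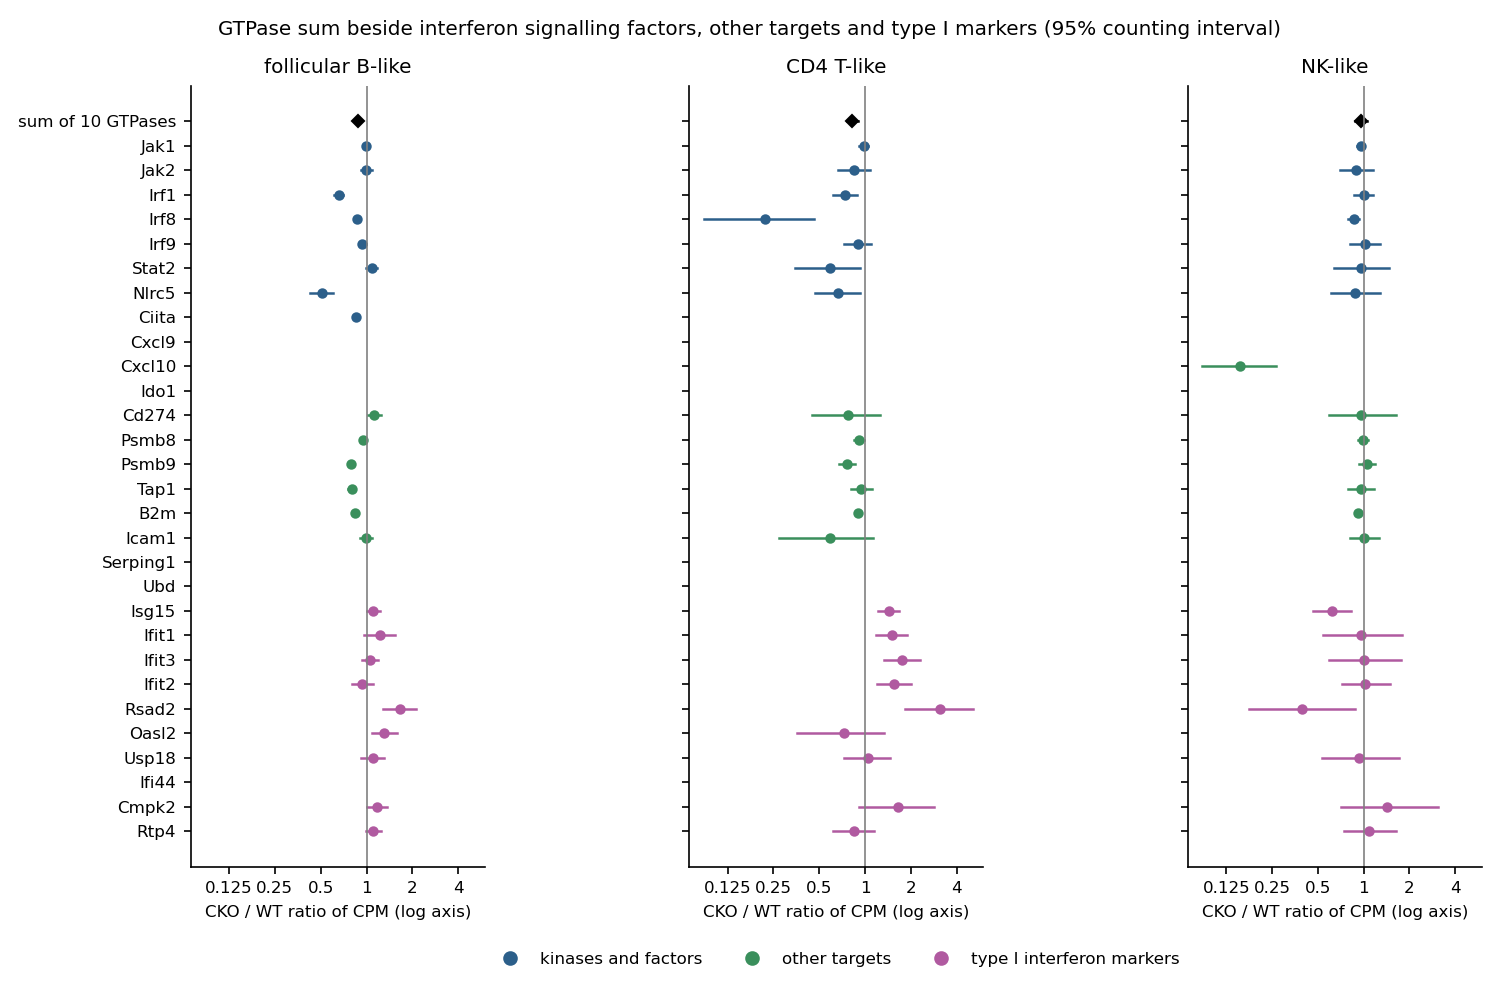
CKO/WT ratio of CPM (log axis) for the GTPase sum (black), signalling kinases and factors (blue), other interferon targets (green) and type I interferon markers (purple) in follicular B-like, CD4 T-like and NK-like cells, with 95% counting intervals; genes with too few UMIs have no point. Irf1 and Nlrc5 lie left of 1 in follicular B-like and CD4 T-like cells and Irf1 near 1 in NK-like cells, while most type I markers of CD4 T-like cells lie right of 1.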

How the data were processed

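The deposited matrices hold whole-number UMI counts per gene and cell barcode for 1 WT and 1 CKO spleen library. Cell Ranger 6.0.2 is named per the file headers, and Cell Ranger 5.0.0, Seurat 4.0.3 and build mm10 per the submitters' processing notes; the parameters and annotation are not given in the sources used here. From these counts, cells with 200 to 6000 genes and under 10% mitochondrial UMIs were kept and gated by marker UMIs. Cells that met the gates of more than 1 lineage (634 WT, 605 CKO, beside 131 and 81 with T and NK markers) were left out of the named classes as possible doublets. Another 156 and 132 met no gate and 3 and 8 were erythroid. All of these stayed in the values over all kept cells and in the makeup weighting. No doublet caller was run. How many markers a gate asks for was set after marker detection was seen. UMIs were summed per class and library and divided by the class total (CPM). Ratios carry exact conditional binomial intervals, levels exact Poisson intervals and shares Clopper-Pearson intervals. A gene was measured in a class when the mean of both rates gave 10 UMIs in the smaller total. Interval and fold calls were run on simulated counts drawn from the Poisson model that the intervals assume. That checks the calculation only, not how well the model describes these cells. The intervals leave out the clustering of UMIs in single cells, such as 41 of 269 GTPase UMIs in 1 WT cDC-like cell. Promoter letters and windows come from RefSeq, spans from GENCODE vM21, and transcript ends were aligned with BLAST+ 2.17.0. Python 3.11.15, numpy 2.4.6 and scipy 1.17.1 were used. The 10 genes and all lists were chosen with earlier results of these data known. All 10 are named; pathway genes are named for the smallest and largest ratios or where a result needs them, and 1 gene of that list is not reported here. There were 14 alternative settings, 1 of them chosen after seeing the data.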

Additional observations from a re-analysis of the deposited data

How the results depend on the processing

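Every summed ratio stayed below 1 under the alternatives run except in 3 classes: cDC-like cells without type I marker cells (1.19; also 0.468 with the stricter gate), monocyte-like cells without type I marker cells (1.34) and NK-like cells, where 1 of 8 alternatives was above 1 (range 0.96 to 1.03). Over single genes, 587 of 593 values stayed within their main counting interval, although 22 of 74 ratios lay on the other side of 1 in at least 1 alternative. The 6 that did not were Irgm1 in cDC-like (1.08), follicular B-like (0.868) and marginal zone B-like cells (0.664) and Gbp6 in CD4 T-like cells (0.443), all without type I marker cells, and Gbp4 (0.279) and Gbp7 (0.233) in cDC-like cells with the stricter gate. Counts of genes 1.5-fold lower changed as follows. The share of all genes past the same fold was not computed under these settings. The counts therefore show only how the calls depend on the setting. At 2-fold, 0 remained in CD4 T-like, naive CD4 T-like, CD8 T-like and marginal zone B-like cells and 2 in cDC-like cells. With 30 expected counts, 1 remained in CD8 T-like and 0 in cDC-like cells, because fewer genes were measured. With no filter on low counts there were 5 in CD8 T-like, 1 in NK-like and 3 in transitional B-like cells. The genes added this way had few UMIs, such as Iigp1 with 4 in WT and 0 in CKO NK-like cells. Without type I marker cells there were 0 in cDC-like and 2 in transitional B-like cells. In cDC-like cells 70 WT and 57 CKO GTPase UMIs were then left and fewer genes were measured, so that 0 shows little. Averaging over cells left 0 in naive CD4 T-like cells. The stricter gate gave 0 in marginal zone B-like and 1 in monocyte-like cells, and leaving out the 5% deepest cells, or the 1 cell richest in GTPase UMIs, 0 in marginal zone B-like cells. The cause of these changes was otherwise not tested. The single higher gene in cDC-like cells (0 with 30 expected counts, 500 to 4000 genes, the stricter gate, and without type I marker, deepest or richest cells) and in marginal zone B-like cells (0 at 2-fold, with 30 expected counts, 500 to 4000 genes, averaging over cells, and without type I marker cells) rested on few UMIs, and the stricter gate gave 1 higher gene in monocyte-like cells. In cDC-like cells the counts of 0 arose because Gbp2 had too few UMIs to be measured. In the 3 alternatives that gave its ratio there, the ratio was 1.94 to 2.69. The ratio of shares of marginal zone B-like cells with a GTPase UMI was 0.848 at 1000 UMIs and 1.06 at 2000. Median ratio scaling, in place of total UMIs, turned no summed ratio and moved 2 counts, to 3 lower genes in CD8 T-like and 5 in cDC-like cells. No paired analysis was possible because each genotype has 1 library, and for the same reason no library could be left out. Low UMI counts limit Iigp1 outside T-like cells and most single genes in the myeloid and CKO CD8 T-like classes. For Iigp1 in follicular B-like cells depth is not the limit. They held 5 and 6 of its UMIs among 27189973 in WT and 34156904 in CKO. WT CD4 T-like cells held 299 among 8820404.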

Other observations

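Some classes were too thin for the counts above. Plasmacytoid dendritic cell-like cells, 41 in WT and 32 in CKO, were the 1 gated class whose summed GTPase ratio lay above 1 with an interval that left out 1: 156 CPM (119 to 202) in WT and 245 (191 to 309) in CKO, a ratio of 1.57 (1.09 to 2.25). Of the 71 CKO UMIs, 26 came from 1 cell. They were the only cells outside the T lineage with an Iigp1 level in the T-like range, 21.2 CPM in WT and 44.8 in CKO, from 8 and 13 UMIs. Gamma-delta T-like cells, 23 and 63, were at 800 CPM (656 to 967) and 455 (396 to 522), and 1 WT cell held 39 of their 107 UMIs. Neutrophil-like cells, at 65.1 CPM (48.5 to 85.6) in WT and 42.1 (28.6 to 59.7) in CKO, were low in both libraries, and 19 of their 51 WT UMIs were those of Gbp7.

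T-like cells with UMIs of neither or of both coreceptors were 839 in WT and 221 in CKO. A coreceptor without a UMI may still be expressed. In these cells Iigp1 was higher in CKO, at 26 CPM (21.9 to 30.6) and 47.6 (36.5 to 61), a ratio of 1.83 (1.34 to 2.48). Gbp4 was at 93 and 65.2 (0.701, 0.551 to 0.884). Of the 62 CKO Iigp1 UMIs there, 13 came from 1 cell. The Iigp1 ratio in CD8 T-like cells lay below 1, but its 2 CKO UMIs are too few to set the directions of the classes against each other. The cells of this class are a mixture that the gates do not resolve. In classical monocyte-like cells, 66 and 116, Irgm2 was at 16.2 CPM in WT and 34.4 in CKO, from 13 and 46 UMIs (2.12, 1.13 to 4.28).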
